A study of Mus musculus with 32 samples.

Results

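The hippocampus of FVB/NJ mice was represented by 4 arrays of 32, and these were compared with the 28 arrays of the other 7 inbred strains: A/J, SJL/J, DBA/2J, C57BL/6J, C3H/HeJ, BALB/cByJ and hippocampus_129S1SvImJ. The last is spelled as in the sample titles, and with a slash before SvImJ in the figures. The arrays were chosen by the strain in those titles, where FVB/NJ is written FVBNJ. None of the mice was treated, and no age or sex is stated in the labels. Every strain was 1 pool of hippocampal RNA from 6 mice. Each pool gave 1 cDNA, from which cRNA was prepared in 2 rounds, and each preparation was hybridised to 2 Affymetrix U74Av2 arrays. The 4 arrays of a strain are thus technical replicates of 1 pool: p-values speak only of technical spread, and the spread between animals is unknown. The question posed by the design is which hippocampal transcripts differ between strains that also differ in behaviour.

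FVB/NJ is an albino inbred strain derived from Swiss mice and is widely used to make transgenic lines, because its fertilised eggs have large pronuclei. It is homozygous for the retinal degeneration allele rd1 of Pde6b, lacks complement component C5 (gene Hc) and carries the q haplotype of the major histocompatibility complex. The hippocampus, with its pyramidal and granule neurons, is central to spatial and contextual memory. A probe set on this array is a group of short oligonucleotides, so its signal depends on the amount of a transcript and also on how well the strain's sequence matches the oligonucleotides. In RNA from whole tissue, fewer cells of a type and less RNA per cell cannot be told apart.

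All levels are log2 of the deposited signal, with signals under 1 set to 1, and are compared within a probe set. A difference is the FVB/NJ mean minus the mean of the other 7 strain means, so that a negative difference is a lower signal in FVB/NJ. A probe set is called when its adjusted p is under 0.05 in limma, with the 2 preparations of each strain as units. Of 12422 probe sets that are not controls, the brightest 7453 entered the test, and 6743 of them carried 1 gene symbol, for 5660 genes.

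FVB/NJ array 1 stood apart from the other arrays of its strain. Over the tested probe sets its Pearson correlation with FVB/NJ arrays 2, 3 and 4 was 0.907, 0.910 and 0.905, whereas arrays 2 to 4 correlated with each other at 0.971 to 0.974. Array 1 differed at least 2-fold from the mean of arrays 2 to 4 at 895 probe sets, or 12% of those tested. Each of arrays 2 to 4 differed that much from the mean of the other two at 1.49% to 1.73% of probe sets. The sense-strand control probe sets read 7.39 on array 1 and 5.09 to 5.62 on arrays 2 to 4, against 4.91 to 7.84 on the arrays of the other strains. Signal ratios between the 3′ and 5′ ends of actin did not set array 1 apart, at 0.31 on array 1 and 0.15 to 0.34 on arrays 2 to 4 on the log2 scale.

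The series design places FVB/NJ arrays 1 and 2 in the first preparation and arrays 3 and 4 in the second. In the other strains the difference between preparations is partly shared, and FVB/NJ array 1 carried that shared difference: array 1 minus the mean of arrays 3 and 4 correlated with preparation 1 minus 2 of the other strains at 0.237 to 0.565. For array 2 minus the mean of arrays 3 and 4 the same correlations were -0.064 to -0.003, near 0 like those for array 3 minus array 4 (-0.061 to 0.035). FVB/NJ array 2 thus resembled the second preparation in spite of its number. The day in its title is shared with 6 arrays of other strains, all from their second preparation. It is therefore uncertain which preparation array 2 came from. The main fit, which averages FVB/NJ arrays 1 and 2, and the fits with the block as labelled share this uncertainty. The cause was not tested. Values are given with array 1, and also without it where leaving it out changes a call or moves a printed difference by over 1.5 times. Without array 1, the FVB/NJ arrays left all resembled the second preparation, while the other strains kept both preparations. A difference without array 1 can thus hold a part of the preparation difference, and the 2 cannot be told apart there.

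**Figure D1:**
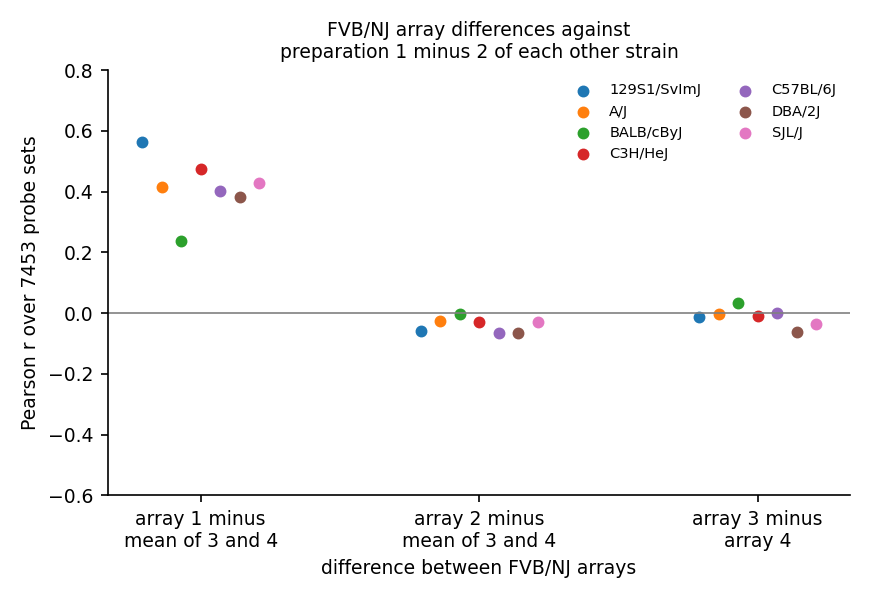
Correlation across 7453 probe sets (Pearson r, vertical axis) of 3 differences between FVB/NJ arrays (horizontal axis) with preparation 1 minus 2 of each of the other 7 strains (coloured points). Array 1 has r of 0.237 to 0.565, while array 2 and the contrast of arrays 3 and 4 lie near 0.

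The main comparison found more transcripts lower than higher in FVB/NJ. The named genes called lower with all 4 FVB/NJ arrays below every other array were Fgf1, Acad9, Mff, Capzb and Aebp2. They encode a growth factor, a mitochondrial dehydrogenase, a mitochondrial fission factor, a subunit of the actin capping protein and a Polycomb cofactor. The clearest higher signals were those of Gdpd3, Gas5, Thumpd1 and Serpina3n. With all 4 arrays, 29 of 7453 probe sets were called, 0.389% of those tested: 8 higher (0.107%) and 21 lower (0.282%) in FVB/NJ. Of the 29, 14 differed at least 2-fold. Without array 1 the count was 33 (0.443%), with 12 higher (0.161%) and 21 lower (0.282%), and 26 probe sets were called both ways, none with opposite sign. With the preparation number as a block, which the series design supports, the count was 114 (1.53%), with 55 higher (0.738%) and 59 lower (0.792%). With that block and FVB/NJ array 2 moved to the second preparation it was 74, with 24 higher and 50 lower. More probe sets were lower than higher in each of these fits, by a narrow margin with the block as labelled.

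The size of a difference near the floor depends on the scale. With an offset of 64 added before log2, 28 of the 29 probe sets were still called, but 8 differences shrank by over 1.5 times. With that offset Fgf1 differed by -0.72 (1.65-fold), Acad9 by -0.75, Pdxdc1 by -0.91, Aebp2 by -0.68, Gcsh by -0.54, Gdpd3 by 0.98 (1.97-fold) and Thumpd1 by 0.86. Rnf13 differed by -0.96 and lost its call (adjusted p = 0.1). The differences of Mff (-1.26), 102870_at (-1.78), Capzb 95142_s_at (-1.47) and Gas5 (1.34) depended less on the offset.

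A stricter description asks which probe sets have all 4 FVB/NJ arrays beyond every one of the other 28 arrays. There were 10 (0.134% of those tested), 9 below (0.121%) and 1 above (0.0134%), and 7 of the 10 were also called. The same count for each other strain against the remaining arrays lay between 9 in A/J and 83 in BALB/cByJ. FVB/NJ was thus at the low end of the strains in this count, with A/J and with SJL/J at 11, a comparison given without a test. For arrays 2 to 4 alone the count was 50 (0.671%), 31 above (0.416%) and 19 below (0.255%). Although 3 arrays meet the condition more easily than 4, leaving out array 2, 3 or 4 instead gave 15, 12 and 12. The FVB/NJ count thus depended on array 1. The other strains were not recounted with an array left out. The place of FVB/NJ among the strains without array 1 is therefore not known.

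**Figure D2:**
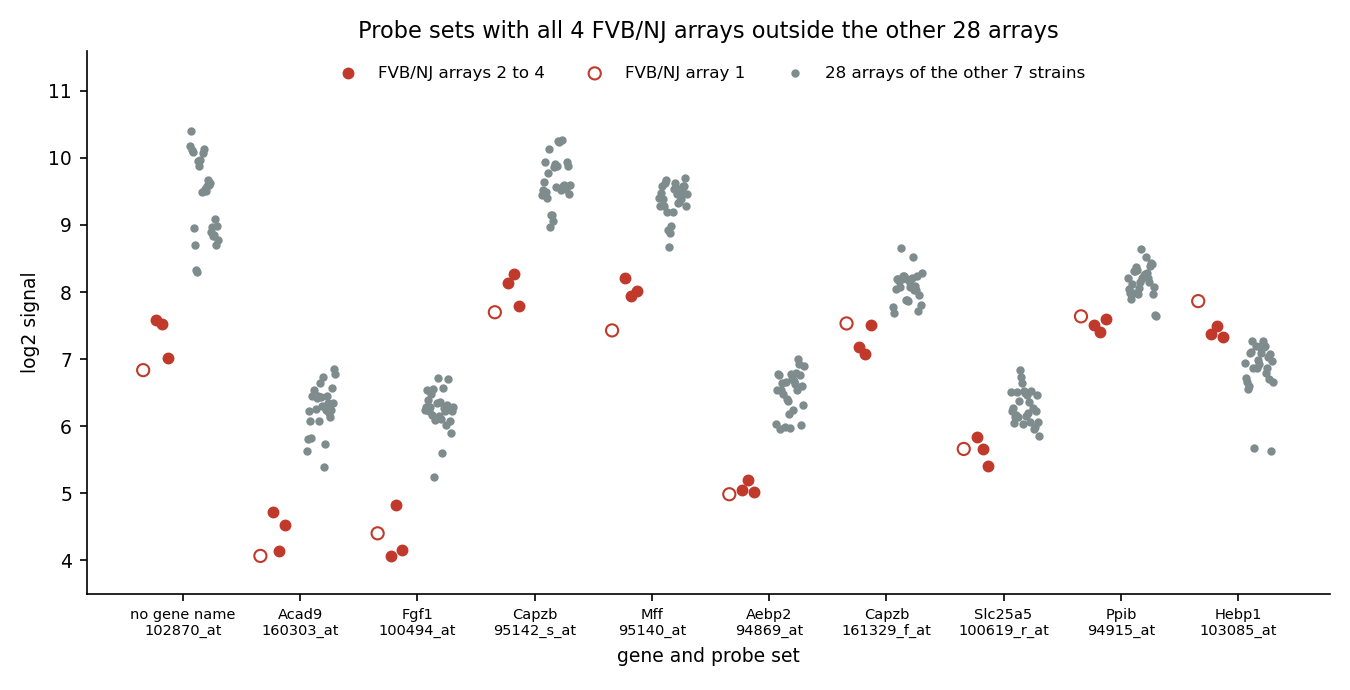
Log2 signal (vertical axis) of the 10 probe sets whose 4 FVB/NJ arrays all lie outside the other 28 arrays. Red points are FVB/NJ arrays 2 to 4, open circles are FVB/NJ array 1 and grey points are the other strains; in 9 probe sets FVB/NJ lies below the others and for Hebp1 it lies above.

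Fgf1, acidic fibroblast growth factor, is a secreted ligand of fibroblast growth factor receptors and is made by some neurons. Its signal was 4.40, 4.06, 4.83 and 4.15 on FVB/NJ arrays 1 to 4, against a lowest value of 5.24, a median of 6.25 and a highest of 6.71 on the other 28 arrays. Every FVB/NJ array lay below every other array. The difference was -1.87 (SE 0.20, adjusted p = 0.00019), a 3.65-fold lower signal with no offset, and -1.95 without array 1. The 7 other strain means lay close together, between 5.999 in BALB/cByJ and 6.39 in C3H/HeJ. Among the 8 strain means that of FVB/NJ, at 4.36, stood alone. It lay under the limit on mean signal for entering the test (21.3 on the linear scale). The size of the difference is therefore uncertain.

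Acad9 encodes a mitochondrial acyl-CoA dehydrogenase that is also an assembly factor of respiratory complex I. It read 4.06, 4.71, 4.14 and 4.52 in FVB/NJ, against 5.39, 6.32 and 6.85 (lowest, median, highest) on the other arrays. The 4 FVB/NJ values again lay below all others. The difference was -1.91 (SE 0.21, adjusted p = 0.0003), and -1.75 without array 1. The FVB/NJ mean (4.36) lay under the same limit on mean signal as that of Fgf1, so the size of this difference is also uncertain. The same arrays were also compared within the day written in the title, where Acad9 differed by -2.03, -1.67, -2.32 and -1.92 for FVB/NJ arrays 1 to 4. Fgf1 differed by -1.85, -2.31, -1.53 and -1.94. Only 1 array, of BALB/cByJ, shares the day of FVB/NJ array 4.

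Mff recruits the fission GTPase Drp1 to the outer mitochondrial membrane. Its signals in FVB/NJ were 7.43, 8.21, 7.94 and 8.01, against 8.67, 9.43 and 9.70 on the other arrays. The groups did not overlap, and array 1 was the lowest of the 4. The difference was -1.48 (SE 0.14, adjusted p = 7.7e-05), and -1.28 without array 1.

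Capzb is the beta subunit of the capping protein that closes the fast-growing ends of actin filaments, and 2 of its probe sets were called. The first, 95142_s_at, read 7.70, 8.13, 8.27 and 7.79 in FVB/NJ, against 8.97, 9.59 and 10.27 elsewhere, a difference of -1.69 (SE 0.14, adjusted p = 3.5e-05). The second, 161329_f_at, read 7.53, 7.18, 7.08 and 7.51 in FVB/NJ, against 7.68, 8.10 and 8.66 elsewhere, a difference of -0.77 (SE 0.13, adjusted p = 0.012). Both lay wholly below the other strains, but their sizes differed. The suffixes _s and _f mark probe sets that may read more than 1 transcript, so the assignment to Capzb is uncertain. Without FVB/NJ array 2 the second probe set was no longer called (-0.68, adjusted p = 0.053).

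Aebp2 is a cofactor of Polycomb repressive complex 2. It had signals of 4.98, 5.04, 5.19 and 5.01 in FVB/NJ, against 5.96, 6.57 and 7.005 on the other arrays. The FVB/NJ arrays were tightly grouped, and all lay below the lowest array of any other strain. The difference was -1.45 (SE 0.20, adjusted p = 0.0021).

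The probe set with the smallest adjusted p among the lower ones, 102870_at, has no gene name here and was singled out after its values were seen. In FVB/NJ it read 6.83, 7.59, 7.53 and 7.01, against 8.30, 9.52 and 10.40 on the other arrays. The difference was -2.16 (SE 0.15, adjusted p = 4.9e-06), and the other strains themselves spread between 8.57 in A/J and 10.20 in hippocampus_129S1SvImJ.

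Ppib, Slc25a5 and Hebp1 completed the probe sets outside the other strains, and none of the 3 was called with all 4 arrays. Ppib, cyclophilin B, a prolyl isomerase of the endoplasmic reticulum, read 7.64, 7.51, 7.40 and 7.59 in FVB/NJ, against 7.64, 8.21 and 8.64. Its difference of -0.64 had an adjusted p of 0.065, and -0.67 without array 1 had 0.044. Array 1 touched the lowest of the other arrays to 2 decimals. Slc25a5, an ADP/ATP carrier of the inner mitochondrial membrane, read 5.66, 5.84, 5.66 and 5.41, against 5.85, 6.25 and 6.84 (difference -0.65, adjusted p = 0.22). With the block as labelled Ppib (adjusted p = 0.011) and Slc25a5 (adjusted p = 0.034) were called, and Slc25a5 was not with array 2 in the second preparation (adjusted p = 0.06). A second Slc25a5 probe set showed a difference of -0.02 (-0.08 without array 1). Hebp1, a haem-binding protein, read 7.86, 7.37, 7.49 and 7.32 in FVB/NJ, against 5.62, 6.95 and 7.26 (difference 0.65, adjusted p = 0.31). It no longer lay outside the other arrays after quantile normalization or centring on the median.

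Among the higher transcripts, Gdpd3, which encodes an enzyme that cleaves lysophospholipids, had the widest difference with no offset. It read 6.89, 7.11, 7.20 and 7.18 in FVB/NJ, against 2.77, 4.94 and 7.12 on the other arrays. The FVB/NJ mean of 7.09 was close to that of hippocampus_129S1SvImJ (6.86), while the remaining 6 strains averaged 4.14 to 5.58. The difference was 2.06 (SE 0.21, adjusted p = 0.00018), a 4.15-fold higher signal with no offset.

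Gas5 is a host gene of small nucleolar RNAs whose spliced transcript is a long noncoding RNA. In FVB/NJ it read 9.37, 9.63, 9.52 and 9.60, against 5.49, 8.45 and 9.63 elsewhere. FVB/NJ at 9.53 stood beside C57BL/6J at 9.59 and SJL/J at 9.29, and hippocampus_129S1SvImJ, C3H/HeJ and A/J lay at 5.87, 6.19 and 6.46. DBA/2J and BALB/cByJ lay between, at 8.75 and 8.52. The difference from the mean of the 7 was 1.72 (SE 0.12, adjusted p = 5.5e-06). Its suffix _g also marks a probe set that may read several transcripts.

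Thumpd1, an RNA-binding adaptor for tRNA acetylation, read 7.41, 7.78, 8.04 and 8.15 in FVB/NJ, against 4.74, 5.72 and 8.14 on the other arrays. FVB/NJ at 7.85 shared the high level of hippocampus_129S1SvImJ (7.92), C57BL/6J (7.83) and SJL/J (7.71), and the other 4 strains averaged 5.15 to 5.67. The difference was 1.44 (SE 0.19, adjusted p = 0.0015).

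Serpina3n, a secreted protease inhibitor known as a marker of reactive astrocytes, read 9.68, 9.65, 9.73 and 9.66 in FVB/NJ, against 7.57, 8.40 and 10.28. The spread between FVB/NJ arrays was under 0.1. The difference was 1.01 (SE 0.13, adjusted p = 0.0012), and FVB/NJ at 9.68 lay under hippocampus_129S1SvImJ at 9.96. Summed signals of 10 tested astrocyte markers were 5869 to 5998 on the FVB/NJ arrays, against 4810 to 7030 with a median of 5840 on the others, and 0 of the 10 was called.

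Cd47, a surface protein that restrains phagocytosis through SIRP alpha, read 9.93, 9.72, 9.65 and 9.60 in FVB/NJ, against 8.31, 9.02 and 10.10 (difference 0.61, adjusted p = 0.027). FVB/NJ (9.72) was about as high as SJL/J (9.76) and hippocampus_129S1SvImJ (9.61). A second Cd47 probe set gave -0.14. The call was lost without BALB/cByJ array 2 (0.59, adjusted p = 0.073), C57BL/6J array 1 (0.63, 0.058) or SJL/J array 2 (0.59, 0.065). Leaving out the whole strain BALB/cByJ, C3H/HeJ, C57BL/6J or DBA/2J also lost it. So did centring arrays on the median and fitting without the variance trend.

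The unnamed probe set 96215_f_at, chosen after its values were seen, read 9.01, 8.88, 8.90 and 8.87 in FVB/NJ, against 6.47, 7.98 and 9.59 (difference 0.92, adjusted p = 0.0031). FVB/NJ (8.91) lay under BALB/cByJ (9.44) and SJL/J (9.27).

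**Figure D3:**
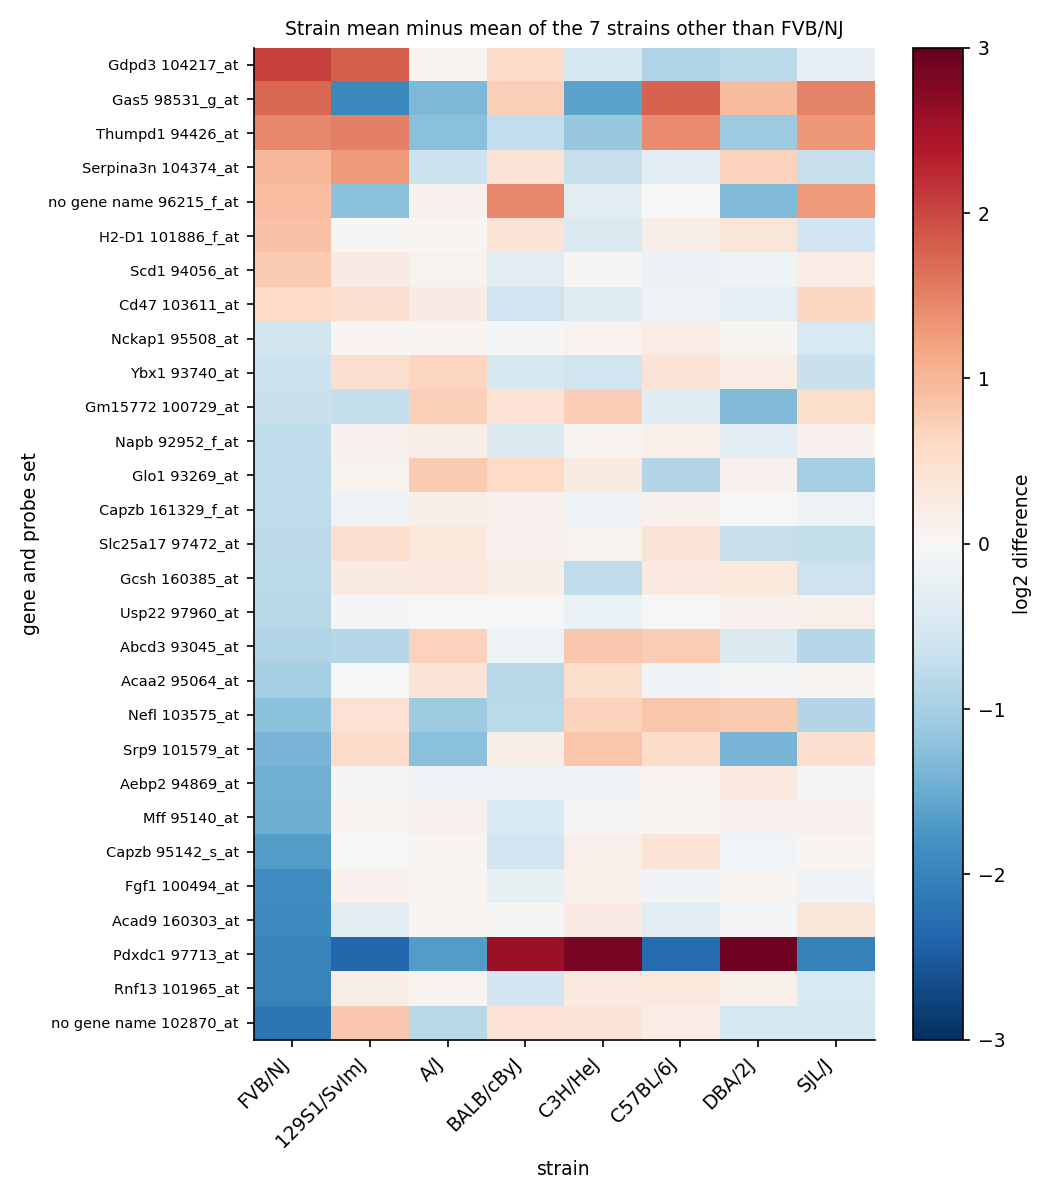
Strain means minus the mean of the 7 strains other than FVB/NJ (log2, colour) for the 29 called probe sets (rows), with FVB/NJ in the left column. FVB/NJ alone is low for Fgf1, Acad9, Mff and Aebp2, whereas Pdxdc1, Srp9 and Gas5 split the strains into groups.

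Of the 21 lower called probe sets, FVB/NJ had the lowest mean of the 8 strains in 16, and of the 8 higher ones it had the highest mean in 3. At some of these probe sets another strain lay close to FVB/NJ. Srp9, a subunit of the signal recognition particle, read 6.84, 7.12, 6.98 and 7.02 in FVB/NJ, against 6.70, 8.79 and 9.31, and the FVB/NJ mean (6.99) was about as low as those of A/J (7.12) and DBA/2J (6.97). Its difference was -1.38 (SE 0.13, adjusted p = 6.8e-05). Nefl, the neurofilament light chain of axons, read 6.74, 6.62, 5.63 and 6.04 in FVB/NJ, against 6.18, 7.88 and 8.73. FVB/NJ (6.26) joined A/J (6.40), SJL/J (6.60) and BALB/cByJ (6.67), and the other 4 strains lay between 7.92 and 8.31. The Nefl difference was -1.22 (SE 0.17, adjusted p = 0.0031).

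Pdxdc1, which encodes a pyridoxal-dependent decarboxylase domain protein, split the strains into a high and a low set. At probe set 97713_at FVB/NJ read 4.49, 2.58, 3.56 and 2.63, against 2.04, 4.22 and 8.35. FVB/NJ (3.32) was low with hippocampus_129S1SvImJ, C57BL/6J, SJL/J and A/J (2.94 to 3.61), and only BALB/cByJ, C3H/HeJ and DBA/2J were high (7.88 to 8.22). The low strain means lay under the limit on mean signal that the filter used (21.3 on the linear scale), so the values show a split of the strains, with the size of the difference uncertain. The difference of -1.98 (adjusted p = 0.00038) was -2.46 without array 1, and -1.51 without array 2, where the adjusted p was 0.052. The other 2 Pdxdc1 probe sets went the opposite way, at 1.35 and 0.89, and were not called (adjusted p = 0.8 and 0.11).

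Acaa2, the mitochondrial thiolase that ends a round of fatty acid oxidation, read 6.58, 6.90, 7.01 and 6.88 in FVB/NJ, against 6.43, 7.95 and 8.55. Its difference was -0.99 (adjusted p = 0.021), and FVB/NJ (6.84) lay near BALB/cByJ (6.99). Without BALB/cByJ array 4 (-0.97, adjusted p = 0.072) or SJL/J array 4 (-0.97, adjusted p = 0.062) Acaa2 was no longer called. Abcd3, a peroxisomal ABC transporter for acyl-CoA esters, read 6.75, 7.16, 6.93 and 7.08, against 6.60, 7.73 and 8.89 (difference -0.90, adjusted p = 0.0057), with FVB/NJ (6.98) beside SJL/J (7.03) and hippocampus_129S1SvImJ (7.04).

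Slc25a17, a peroxisomal carrier of cofactors, read 6.49, 6.40, 6.36 and 7.31 in FVB/NJ, against 6.54, 7.49 and 8.14 (difference -0.79, adjusted p = 0.026). Array 4 stood above the other 3. In strain means FVB/NJ (6.64) lay near SJL/J (6.70) and DBA/2J (6.73), and the remaining strains lay between 7.52 and 7.93. The call was lost without FVB/NJ array 3 (-0.55, adjusted p = 0.44), BALB/cByJ array 2 (-0.76, 0.1) or 3 (-0.82, 0.074), or C57BL/6J array 1 (-0.77, 0.091). Gcsh, the H protein of the mitochondrial glycine cleavage system, read 6.38, 6.49, 6.77 and 6.21, against 6.18, 7.49 and 7.78 (difference -0.82, adjusted p = 0.0071, and -0.68 with 0.053 without array 4). FVB/NJ (6.46) was near C3H/HeJ (6.53) and SJL/J (6.66).

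Glo1, glyoxalase 1, detoxifies methylglyoxal and has been linked to anxiety-like behaviour in mice. Its probe set 93269_at read 8.19, 8.58, 8.62 and 8.74 in FVB/NJ, against 8.20, 9.48 and 10.12. FVB/NJ (8.53) shared the low level with C57BL/6J (8.41) and SJL/J (8.30), and A/J was the highest at 10.06. The difference was -0.75 (SE 0.11, adjusted p = 0.0031), and -0.66 without array 1. Probe set 93268_at gave -0.78 (adjusted p = 0.063), and -0.51 without array 1, and was called with the block (adjusted p = 0.0011). Array 1, whose value was 6.85, lay under the 7.78 to 7.91 of arrays 2 to 4.

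Other lower called transcripts, chosen after their values were seen, were Napb, Ybx1, Nckap1 and Gm15772. Napb, a SNARE disassembly factor of synapses, read 7.86 to 8.11 in FVB/NJ, against 7.96, 8.78 and 9.17 (difference -0.75, adjusted p = 0.0044), but a second Napb probe set gave -0.004 (-0.10 without array 1). The called Napb probe set, 92952_f_at, bears the suffix _f and may read more than 1 transcript. Ybx1, a cold shock domain RNA-binding protein, differed by -0.65 (adjusted p = 0.013). FVB/NJ (10.03) was about as low as SJL/J (10.02), C3H/HeJ (10.09) and BALB/cByJ (10.19), and the remaining strains lay between 10.89 and 11.32. Without FVB/NJ array 2 Ybx1 was not called (-0.57, adjusted p = 0.084). Nckap1, a subunit of the WAVE complex that drives actin branching, differed by -0.54 (adjusted p = 0.027), and was not called without BALB/cByJ array 3 (-0.53, adjusted p = 0.069). Its FVB/NJ mean (10.40) lay near that of SJL/J (10.49), and the remaining strains lay between 10.89 and 11.16. Gm15772 differed by -0.68 (adjusted p = 0.013), with FVB/NJ (10.12) above DBA/2J (9.46) and hippocampus_129S1SvImJ (10.09). Its call was lost without A/J (-0.56), without C3H/HeJ (-0.56) and with arrays centred on the median (-0.69).

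Array 1 decided 3 calls made with all 4 arrays. Rnf13, a membrane-bound RING ubiquitin ligase of endosomes, read 4.09, 5.43, 4.61 and 5.25 in FVB/NJ at probe set 101965_at, against 5.26, 6.82 and 7.95. Array 2 lay within the range of the others. The difference was -2.003 (SE 0.36, adjusted p = 0.021), but -1.67 with an adjusted p of 0.069 without array 1. It was also not called without C57BL/6J array 1 (-1.94, 0.091) or SJL/J array 1 (-1.96, 0.065). The brighter Rnf13 probe set 101966_s_at read 7.55 to 7.68 in FVB/NJ, against 7.07, 7.51 and 7.86, a difference of 0.13. The 2 probe sets of Rnf13 thus disagree.

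Usp22, the deubiquitinase of the SAGA complex, read 6.52, 7.37, 7.03 and 7.13 in FVB/NJ, against 7.27, 7.87 and 8.04 (difference -0.82, adjusted p = 0.0058). Without array 1 it was -0.61 with an adjusted p of 0.062. H2-D1, a classical class I histocompatibility gene, read 8.02, 7.11, 7.53 and 7.62 at 101886_f_at, against 5.82, 6.77 and 7.54 (difference 0.87, adjusted p = 0.026). Without array 1 the difference was 0.64 with an adjusted p of 0.17, and without BALB/cByJ array 4 it was 0.86 with 0.069. A second H2-D1 probe set, 97540_f_at, showed no such shift, at 6.80 to 6.87 in FVB/NJ, against 5.77, 6.85 and 8.25, a difference of -0.09. Class I genes are highly similar in sequence, and both suffixes mark probe sets that may read several of them.

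Leaving array 1 out added 7 probe sets to the calls: Spg21, Rps28, Ppib, Scoc, Hbb-b2 and the unnamed 102813_f_at and 93078_at. Scoc, Hbb-b2 and the unnamed ones were chosen after their values were seen. With the block as labelled and array 1 kept, all 7 were called as well, with adjusted p from 2.9e-05 for Spg21 to 0.037 for 93078_at. With array 2 in the second preparation 93078_at was not (adjusted p = 0.32). Spg21, which encodes maspardin, a protein lost in a hereditary spastic paraplegia, had the widest difference of these. At probe set 95430_f_at it read 6.33, 7.31, 7.38 and 7.43 in FVB/NJ, against 3.65, 4.96 and 7.10. The suffix _f marks a probe set that may read more than 1 transcript, so the assignment to Spg21 is uncertain. Arrays 2 to 4 lay above every other array and array 1 did not. The difference was 1.90 (adjusted p = 0.063) with all arrays and 2.14 (adjusted p = 0.023) without array 1. With an offset of 64 it was 0.94 (adjusted p = 0.024). FVB/NJ (7.11) had the highest strain mean, before C57BL/6J (6.57) and SJL/J (6.25).

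Rps28, a protein of the small ribosomal subunit, read 11.29, 10.71, 10.75 and 10.74 at 98085_f_at in FVB/NJ, against 10.85, 11.83 and 12.43. Arrays 2 to 4 lay below all other arrays. This probe set also bears the suffix _f, so the assignment to Rps28 is uncertain. The difference was -0.86 (adjusted p = 0.063), and -1.003 (adjusted p = 0.017) without array 1. Another 2 Rps28 probe sets gave -0.29 and -0.11 (the last -0.45 without array 1), neither called. Scoc, a coiled-coil protein of the Golgi that takes part in autophagy, read 7.82, 8.15, 8.05 and 8.09, against 6.04, 7.13 and 8.16 (0.84 with all arrays, and 0.92 with an adjusted p of 0.031 without array 1).

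Hbb-b2, an adult beta globin, read 7.504, 7.86, 7.88 and 7.74 in FVB/NJ, against 6.02, 7.19 and 8.13. Without array 1 the difference was 0.85 (adjusted p = 0.034), and with it 0.76 (adjusted p = 0.072). FVB/NJ (7.75) was below C3H/HeJ (7.92) in strain mean. The summed signal of 3 tested erythroid markers, Hbb-b2 among them, was 2051 to 2197 on the FVB/NJ arrays, against 1295 to 2533 with a median of 1731 on the others, and the part of blood in this result was not tested. Choroid plexus and meningeal markers summed to 3633 on array 1 and 2665 to 2830 on arrays 2 to 4, against 2184 to 3608 with a median of 2551 on the others.

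**Figure D4:**
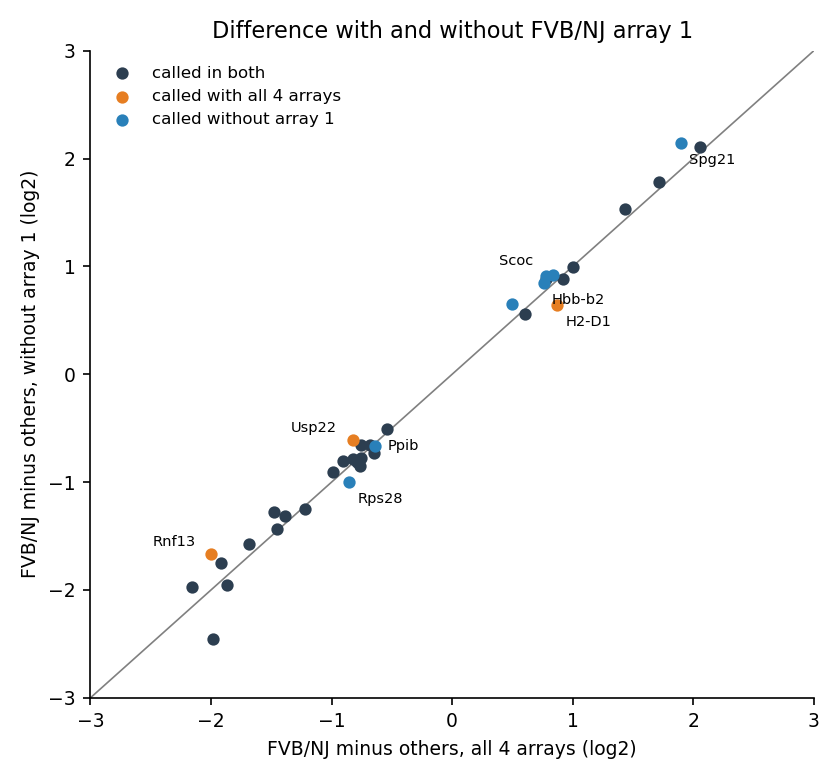
FVB/NJ minus the other 7 strains (log2) with all 4 arrays (horizontal axis) and without array 1 (vertical axis) for every probe set called in either fit. Points near the diagonal line kept their size; orange points (Rnf13, Usp22, H2-D1) were called only with array 1 and blue points only without it.

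Scd1 makes monounsaturated fatty acids for membrane and myelin lipids. Its probe set 94056_at read 9.03, 9.45, 9.62 and 9.49 in FVB/NJ, against 7.95, 8.66 and 9.11, and arrays 2 to 4 lay above all other arrays. The difference was 0.78 (SE 0.15, adjusted p = 0.043), and 0.89 (adjusted p = 0.011) without array 1. This call sat near the threshold: it was lost without FVB/NJ array 2 (0.68, adjusted p = 0.18) or 3 (0.75, 0.056). It was also lost without arrays 2 or 4 of hippocampus_129S1SvImJ (0.79 and 0.78), arrays 1 or 4 of BALB/cByJ (0.79 and 0.76), arrays 1 or 4 of C3H/HeJ (0.80 and 0.77), arrays 1 or 4 of C57BL/6J (0.80 and 0.77) and arrays 1, 2 or 4 of SJL/J (0.79, 0.77 and 0.77). The Scd1 probe set 94057_g_at gave 0.70 (adjusted p = 0.47, and 0.036 with the block as labelled). The dim 94058_r_at gave -0.74 (adjusted p = 0.97), and -1.23 without array 1. Myelin and oligodendrocyte markers, 10 tested and 0 called, summed to 3695 to 4655 in FVB/NJ, against 3187 to 5356 with a median of 3806.

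Pam, the enzyme that amidates neuropeptides, had the largest difference of any named gene with no offset and was not called. It read 2.35, 2.43, 3.74 and 4.66 in FVB/NJ, against 2.20, 5.12 and 7.82. The FVB/NJ arrays spanned more than 2 log2 units and overlapped the others. The difference was -2.18 (SE 0.45, adjusted p = 0.063), and with the preparation block the adjusted p was 0.02. With an offset of 64 it was -0.65. Gnb1, a G protein beta subunit, was not called at any of its 3 probe sets with all 4 arrays, with differences of 0.23, 0.27 and 0.70. The last, 94853_at, was called with the block as labelled (adjusted p = 0.034), but not with array 2 in the second preparation (adjusted p = 0.085).

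The gene lists gave few calls, counted by the brightest probe set of a gene and read against 6 higher and 16 lower of 5660 named genes and a median difference of 0.02 over those genes. With the block 80 of the 5660 were called. Of 21 fatty acid oxidation genes tested, 0 were higher and 2 lower, Acad9 and Acaa2, and the median difference was 0.05, and 0.15 without array 1. Of 30 genes of respiratory complex I and its assembly, Acad9 alone was called, and the median was -0.05 (-0.07 without array 1). In the list of fibroblast growth factor and neurotrophin signalling, Fgf1 alone of 14 was called (median 0.04, and -0.03 without array 1). With the block the count was 2, the second being Ntrk2, the receptor of BDNF, chosen after its values were seen. Ntrk2 differed by -1.63 (adjusted p = 0.25, and 0.023 with the block), and by -0.98 without array 1 (adjusted p = 0.4). In lipid synthesis and handling, Scd1 alone of 26 was called (median 0.07). With all 4 arrays the medians of these 4 lists lay near the median of all named genes, while Acad9 and Fgf1 stood far from it.

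The remaining lists had 0 calls with all 4 arrays in limma, among 16 histocompatibility and antigen processing genes, 14 complement and microglial genes, 20 glutamate receptor and transport genes and 13 genes of GABA synthesis, transport and receptors. The same held for 22 neuropeptide genes, 28 voltage-gated channels, 22 immediate early genes, 41 heat shock proteins and chaperones, 31 RING finger and F-box ligases, 25 cytosolic ribosomal proteins and 8 genes of phototransduction and pigmentation. Over all probe sets 403 had an unadjusted p under 0.05. Without array 1, where the FVB/NJ arrays left all resembled the second preparation, 891 did. With the block, calls were 2 for chaperones, 1 for complement, 1 for neuropeptides and 1 for ribosomal proteins. Rnf13 and H2-D1 entered their lists through their brighter probe sets, which were not called.

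Of these lists the ribosomal proteins were the most one-sided: 21 of 25 lay below 0, with a median difference of -0.13, against 2597 of 5660 named genes below 0. Without array 1 it was 22 of 25 with a median of -0.17, and Rps28 was then the 1 member called. Within other lists the widest differences did not pass the test. Hspa1b, the inducible 70 kDa heat shock protein, read 7.03, 7.06, 6.90 and 7.23 in FVB/NJ, against 4.90, 5.89 and 7.13 (difference 1.13, adjusted p = 0.23, and 0.017 with the block). Cd59a, a regulator of the complement attack complex, read 6.05, 6.20, 6.40 and 5.99, against 4.23, 5.25 and 6.32 (difference 0.88, adjusted p = 0.18, and 0.034 with the block). With array 2 in the second preparation Cd59a was not called in the fit with the block (adjusted p = 0.067), and Hspa1b was (adjusted p = 0.021).

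Among histocompatibility genes, by the brightest probe set, the widest differences were those of H2-DMb1 (0.77) and H2-Eb1 (0.67), which act in class II antigen presentation, both with an adjusted p of 0.97. Glutamate receptor subunits Grin2d and Grik5 differed by -0.49 and -0.36 (-0.20 and -0.57 without array 1), the GABA-A subunits Gabrg1 and Gabra2 by 0.59 and 0.32, and the channels Kcnd2 and Cacna1c by 0.64 (0.98 without array 1) and -0.49, none of them called. Trh, the precursor of thyrotropin-releasing hormone, differed by -0.66, and the activity-regulated genes Atf3 and Plk3 by -0.45 and -0.36, the last being -0.58 without array 1. Complement C2 differed by 0.37 (0.20 without array 1) and the chaperone cofactor St13 by 0.59, though a second St13 probe set gave 0.17 (0.45 without array 1). The ubiquitin ligases Rnf6 and Rnf19a differed by 0.53 and 0.43, and Rnf19a by 0.65 without array 1. The retinal phosphoprotein Pdc gave -0.63 and the pigmentation transporter Oca2 gave 0.40, again without a call.

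**Figure D5:**
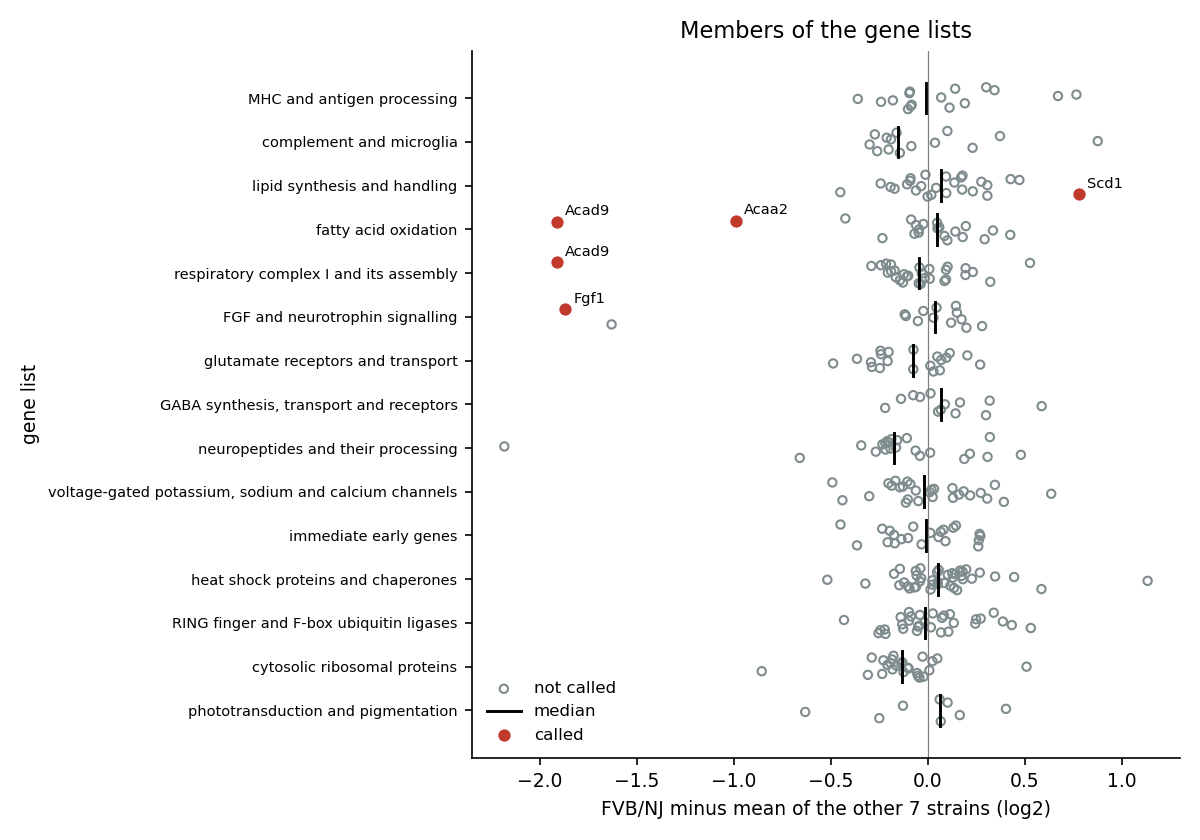
FVB/NJ minus the mean of the other 7 strains (log2, horizontal axis) for each gene of 15 lists (rows), 1 point per gene and a black bar at the median. Red points mark the called genes Scd1, Acad9, Acaa2 and Fgf1, and the medians lie between -0.18 and 0.07.

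The genes for which FVB/NJ is known as a carrier of altered alleles were too dim to be tested. Hc read 1.32, 3.09, 3.57 and 3.26 in FVB/NJ, against 0.85, 2.70 and 4.22. The 2 probe sets of Pde6b read 2.61 to 4.87 and 0.00 to 1.63 in FVB/NJ, within 1.20 to 5.46 and near the lower end of 0.38 to 4.04 on the other arrays. Tyr, the tyrosinase gene mutated in albino mice, read 1.20 to 4.10, against 0.58 to 4.71. Every one of these ranges overlapped that of the other strains, and no test was made at these levels near the floor. The other strains were not split by the alleles they carry, so the overlap says nothing about what these alleles do.

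Cell type markers of the tissue were present in FVB/NJ, and none of their lists held a call with all 4 arrays. Markers of hippocampal pyramidal and granule neurons (13 tested) summed to 12399 to 16787 in FVB/NJ, against 11314 to 18503 with a median of 15466, and array 1 was the highest of the 4. Interneuron markers (12) summed to 6195 to 6763, against 5430 to 7860. Microglial markers (9) summed to 1412 to 1532, against 1301 to 1840. The sums of endothelial markers (410 to 480 in FVB/NJ, against 403 to 638) and of markers of neighbouring regions (1095 to 1167, against 962 to 1534) also lay within the range of the other strains.

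Set against single strains, FVB/NJ had the fewest wide differences from SJL/J. At least 2-fold differences between strain means numbered 97 against SJL/J, 48 lower and 49 higher in FVB/NJ. The counts were 111 against hippocampus_129S1SvImJ, 135 against A/J, 153 against C3H/HeJ, 170 against DBA/2J, 202 against C57BL/6J and 475 against BALB/cByJ. By the median absolute difference hippocampus_129S1SvImJ was nearest (0.155), followed by A/J (0.167), DBA/2J (0.172) and SJL/J (0.174), so that the 2 measures order the strains differently. For each called probe set the strain with the closest mean was BALB/cByJ in 8 of 29, SJL/J in 7, hippocampus_129S1SvImJ in 6 and DBA/2J in 1. Over all tested probe sets BALB/cByJ was closest in 7.85%, SJL/J in 15.3%, A/J in 16.3%, hippocampus_129S1SvImJ in 16.8% and DBA/2J in 17.1%. These are descriptions without a test.

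Within days most directions were the same. Of the 29 called probe sets, 29 kept their sign on the days of FVB/NJ arrays 1 to 3, and 26 also on the day of array 4. These values reuse the arrays that gave the calls, so this agreement is a description and adds no independent support. With the day as a block and single arrays as units the count of calls was 168, with 69 higher and 99 lower, including all 29. The 2 arrays of a preparation are not independent of each other. The probe sets called in each of the fits run, 8 in number, were Fgf1, Acad9, Mff, Srp9, Gas5, Gdpd3, Capzb 95142_s_at and the unnamed 102870_at, and 17 of the 29 were called whichever single array was left out.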

How the data were processed

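Hippocampal RNA of 8 inbred strains was measured on 32 Affymetrix U74Av2 arrays. The authors deposited intensities on a linear scale, 1 for each array and probe set. MAS5 made them, per the submitters' processing notes, and its version and target are not stated. The trimmed mean (2% from each end) was 100.054 to 100.071 on all arrays, so no scaling was added. Strain and array number came from the sample titles. The table holds 12488 probe sets, and the 66 controls among them were dropped. The 2.14% of values below 1 were raised to 1, log2 was taken, and the 60% with the highest mean (limit 21.3) were tested. Depth has no counterpart on arrays: the number of arrays limits precision.

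Both arrays of each preparation were averaged to 16 values in all. limma 3.58.1 in R 4.3.3 (lmFit, eBayes with a variance trend, 8 residual degrees of freedom) tested FVB/NJ against the mean of the other 7 strain means, with Benjamini-Hochberg adjustment over 7453 probe sets and a threshold of 0.05. Where several FVB/NJ values stand in order, they are arrays 1 to 4, and 3 values after "against" are the lowest, median and highest of the other 28 arrays. Within-day values are an FVB/NJ array minus the mean of the other strains' arrays whose titles give the same day. Array numbers mark the preparation per the series design, so the fit with the preparation as a block is printed where it moves a count. Preparation 1 minus 2 in FVB/NJ correlated with that of the other strains at 0.202 to 0.462. This came from FVB/NJ array 1 and not from array 2, as given in the Results. On simulated data of 7453 probe sets for this comparison, 63% of 100 changed by 1 and 92% of 100 changed by 2 (log2) were recovered, with 8 false calls.

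Gene symbols came from the platform annotation (10833 probe sets with 1 symbol, 396 with several, 1193 not listed), of which 10817 matched a RefSeq table of GRCm38.p6, with 0 symbols changed. The rule for named genes took every called probe set with 1 symbol, up to 15 in each direction, those called without array 1 with arrays 2 to 4 outside the other strains, up to 15 in each direction with all 4 arrays outside, up to 4 members of each gene list, and a set of candidate genes. The members, lists and tests were chosen with earlier results of these data known. Alternatives covered leaving out arrays, preparations and strains, the filter, the offset before log2 (16 or 64), normalization, the block, the unit, the day and the variance trend. No pair of arrays held identical values. No genome coordinates or probe sequences were used here.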

Additional observations from a re-analysis of the deposited data

Results flagged for a closer look

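A value was marked when the highest or lowest of the 4 FVB/NJ arrays was separated from its nearest neighbour by a larger share of the range of the 4 than the critical value of Dixon's test for 4 samples. Of 69 measures tested 8 were marked. Chance marks about 1 in 20 independent measures, but these all come from the same 4 arrays. Spg21 and Rps28 were also named through the fit without array 1. The number marked thus cannot be read against that rate. Array 1 was the separate array in 6 of the 8. It was already known to stand apart and to carry the preparation difference shared with other strains. These 6 marks restate that and add no support, and the part of the preparation in them was not tested.

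The mean correlation of array 1 with the other FVB/NJ arrays was 0.907, with a gap of 0.933 of the range. Array 1 was also separate for Rps28 98085_f_at (11.29, gap 0.928), Kcnd2 99339_r_at (5.79, gap 0.923), Spg21 95430_f_at (6.33, gap 0.895), Rnf19a 100509_at (6.27, gap 0.876) and Glo1 93268_at (6.85, gap 0.873). At Rps28 array 1 was the highest of the 4 and at the other 4 probe sets it was the lowest. Without array 1 the calls of Rps28 and Spg21 were gained, as given above.

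Array 3 was separate for H2-Eb1 94285_at (5.63, gap 0.949), where arrays 1, 2 and 4 read 5.26 to 5.27. Array 4 was separate for Slc25a17 97472_at (7.31, gap 0.863), and without it FVB/NJ had values of 6.36 to 6.49.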

How the results depend on the processing

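The 29 calls became 25 to 33 when single arrays were left out, and 24 to 43 when a strain, the filter, the offset, the normalization or the place of FVB/NJ array 2 in the averages was changed. With 1 FVB/NJ preparation the count was 11 without the first and 11 without the second, where fewer arrays were averaged. With the replicate block it was 114, with the block and FVB/NJ array 2 in preparation 2 it was 74, with single arrays as units 104, with the preparation as a random block 63, with the day as a block 168, and without the variance trend 19. Of the calls 27.6% were higher, against 48.2% with the block.

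The 10 probe sets outside the other arrays became 12 to 50 when single FVB/NJ arrays were left out (50 without array 1), 16 without SJL/J and 79 with low sense-strand control arrays only, where fewer arrays set the range. Within the day of FVB/NJ array 4, shared by 1 BALB/cByJ array, the sign turned for Acaa2 (0.447), Slc25a17 (0.085) and 96215_f_at (-0.719). The cause was not tested.

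Because a strain is 1 pool, no fit shown includes the spread between animals, and signals near the floor give no order between strains.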
